A study of Mus musculus with 16 samples.

Results

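Schwann cells wrap, support and feed the axons of peripheral nerves, and fat is crossed by such nerves. The 7 genes described here mark these cells or their myelin: Sox10, S100b, Cdh19, Gfra3, Mbp, Ncmap and Pmp22. They were chosen by symbol, with earlier results of these data known. All 7 were found among the 38720 lines of the count table and passed the filter on low counts that left 16842 genes.

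In a Schwann cell the transcription factor SOX10 is needed from the neural crest stage onward. Neuregulin from the axon, read by the receptors ERBB2 and ERBB3, drives the cell forward, and SOX10 together with POU3F1 switches on EGR2, which turns on the genes of myelin. Cells that wrap large axons make myelin, while others hold bundles of thin axons without it and keep genes such as Ngfr and L1cam.

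RNA was measured in adipose progenitors, the cells of fat tissue from which new adipocytes arise, taken from mice 4 weeks old. The 4 groups were Nr4a1-/- (KO) visceral fat (VAT), Nr4a1+/+ (WT) visceral fat, KO subcutaneous fat (SAT) and WT subcutaneous fat, with n = 4 libraries each. The labels write the KO genotype as B6;129S2-Nr4a1tm1Jmi/J and give C57BL/6J as the strain of all groups. They name neither a Cre driver nor a treatment. Nr4a1 encodes an orphan nuclear receptor and immediate early gene. The series calls the libraries biological replicates without saying whether an animal gave more than 1, and the p-values therefore reflect the spread among libraries, part of which may be technical. Column names carry the word MACS, a magnetic sort, and do not name the antigens it used.

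The members are protein-coding genes spread over 6 chromosomes of GRCm38 (the mm10 assembly). Sox10 lies on chromosome 15 (79154908 to 79165240, minus strand), S100b on chromosome 10 (76253853 to 76261159, plus strand) and Cdh19 on chromosome 1 (110888326 to 110977584, minus strand). Ncmap lies on chromosome 4 (135369576 to 135398227, minus strand), Pmp22 on chromosome 11 (63128982 to 63159547, plus strand), and Mbp and Gfra3 both on chromosome 18. Counts were summed over all exons of a gene, so transcripts from different start sites of 1 gene were not told apart. The span of S100b overlaps Dip2a on the other strand, and no member shares an exonic base with any gene whose span it overlaps.

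Library totals ran from 34655519 to 55551845 counts. Levels are CPM, reads normalised for library size with TMM factors, and differences are log2 fold changes ± SE from edgeR's quasi-likelihood test, called at an adjusted p under 0.05 over all tested genes. Nr4a1 itself stood at 297 to 327 CPM in KO VAT against 1432 to 1649 CPM in WT VAT, and at 195 to 209 CPM in KO SAT against 997 to 1212 CPM in WT SAT, so every library matched its label. The summed level of 10 progenitor genes was 22297 CPM or more in every library, most of it from the matrix genes Col1a1 and Dcn. Of the same list, Pdgfra averaged 693 CPM, Cd34 1139 CPM and Dpp4 331 CPM over all 16 libraries. WT SAT replicate 3 and KO VAT replicate 4 correlated least with their own groups across genes (mean r of 0.976 and 0.981), and member results that turn on either are given without them.

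Start sites matter most for Pmp22, known for separate promoters of which the more upstream is used mainly by myelinating Schwann cells. Windows of Mbp and Gfra3 are not used here. For 3 of the remaining members the RefSeq promoter table (GRCm38.p6) held windows, 1 for S100b, 2 for Ncmap and 4 for Pmp22, each of 300 bases that start 250 bases before a transcription start and end 50 bases after it. The 2 windows of Ncmap, the member with the largest depot difference, and the 2 most upstream of Pmp22, the member with the smallest called one, are shown because one count stands for all of them. Capitals would mark a match to the SOX letters AACAAT or ACAAAG or to the EGR letters GTGGGCG, on either strand.
Ncmap window 1, chr4:135398178-135398477, minus strand: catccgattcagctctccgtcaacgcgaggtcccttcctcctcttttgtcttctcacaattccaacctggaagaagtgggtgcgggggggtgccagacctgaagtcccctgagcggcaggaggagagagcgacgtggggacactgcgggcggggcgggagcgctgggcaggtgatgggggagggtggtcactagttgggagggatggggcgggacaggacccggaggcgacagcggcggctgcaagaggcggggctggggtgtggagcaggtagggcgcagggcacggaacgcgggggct
Ncmap window 2, chr4:135385623-135385922, minus strand: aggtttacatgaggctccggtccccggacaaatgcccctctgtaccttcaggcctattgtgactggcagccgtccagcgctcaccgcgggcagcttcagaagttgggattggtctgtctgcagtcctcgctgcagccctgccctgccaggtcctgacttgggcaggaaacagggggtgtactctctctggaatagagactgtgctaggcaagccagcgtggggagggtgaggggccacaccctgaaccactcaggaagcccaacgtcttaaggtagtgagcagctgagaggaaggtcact
Pmp22 window 1, chr11:63128732-63129031, plus strand: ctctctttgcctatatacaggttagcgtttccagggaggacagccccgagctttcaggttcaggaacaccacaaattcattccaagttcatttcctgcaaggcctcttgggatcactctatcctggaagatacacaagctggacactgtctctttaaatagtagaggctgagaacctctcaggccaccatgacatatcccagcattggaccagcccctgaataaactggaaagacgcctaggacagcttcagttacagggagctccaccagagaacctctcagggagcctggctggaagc
Pmp22 window 2, chr11:63131207-63131506, plus strand: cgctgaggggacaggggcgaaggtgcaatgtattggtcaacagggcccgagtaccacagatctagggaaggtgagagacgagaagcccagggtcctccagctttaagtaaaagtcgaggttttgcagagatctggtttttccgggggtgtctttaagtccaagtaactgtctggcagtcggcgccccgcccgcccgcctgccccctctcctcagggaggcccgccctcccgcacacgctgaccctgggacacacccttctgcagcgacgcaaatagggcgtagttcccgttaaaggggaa
No capitals appear, since none of these letters, nor any in the other 3 member windows, matched. Among all 32851 windows of the table, 27% held the SOX letters and 7.97% the EGR letters. The absence of a match says only that these letters are not in these windows.

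The first question was whether the markers differ between the depots. All but Gfra3 were lower in VAT than in SAT in both genotypes, from Ncmap, at 0.0513 times its SAT level in KO, to Pmp22, at 0.807 times. That is 6 of 7 members called lower in KO libraries, where 20% of all tested genes were called lower, 23.3% higher and 43.3% in either direction. It is also 6 of 7 in WT libraries, where 17.6% were called lower, 19.1% higher and 36.7% in either direction. The median log2 fold change of the members was -1.77 in KO and -1.47 in WT, against 0.017 in KO and -0.0044 in WT over all tested genes. In bulk RNA, fewer cells of a type and less RNA per cell cannot be told apart.

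Sox10, the lineage's transcription factor, had 2.31, 1.08, 1.37 and 1.90 CPM in KO VAT and 1.89, 1.93, 1.29 and 2.24 CPM in WT VAT, against 8.14, 6.56, 6.78 and 8.86 CPM in KO SAT and 6.92, 13.6, 8.08 and 9.18 CPM in WT SAT. Every VAT library was below every SAT library, and the VAT values of the genotypes overlapped. The log2 fold change of VAT over SAT was -2.18 ± 0.25 in KO (adjusted p = 1.56e-06) and -2.36 ± 0.24 in WT (adjusted p = 7.25e-07). The VAT values rest on 49 to 115 counts per library, for which counting error alone gives a coefficient of variation of 11.4% in KO VAT and 10.5% in WT VAT.

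S100b, a calcium-binding protein abundant in Schwann cells and also made by adipocytes, had 6.33, 7.26, 5.69 and 7.67 CPM in KO VAT and 5.49, 5.85, 5.68 and 5.54 CPM in WT VAT, against 13.6, 12.4, 16.3 and 14.0 CPM in KO SAT and 10.9, 14.2, 22.8 and 14.8 CPM in WT SAT. The depots did not overlap, and the 22.8 CPM belonged to WT SAT replicate 3. Its log2 fold change was -1.06 ± 0.17 in KO (adjusted p = 7.05e-05) and -1.47 ± 0.17 in WT (adjusted p = 2.98e-06). The summed level of 8 adipocyte genes, mostly Lpl, Fabp4 and Car3, ranged from 3754 to 5220 CPM in KO VAT and 3002 to 3519 CPM in WT VAT, against 3333 to 5381 CPM in KO SAT and 4526 to 6169 CPM in WT SAT. Gene by gene, 6 of the 8 were called higher and 0 lower in KO VAT than in KO SAT. Of all tested genes, 23.3% were called higher and 20% lower there. In WT VAT 0 were called higher and 1 lower than in WT SAT, against 19.1% and 17.6% of all tested genes. The part of adipocyte RNA in the S100b values was not tested.

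Cdh19, a cadherin of the Schwann cell lineage, had 3.61, 1.01, 1.66 and 1.48 CPM in KO VAT and 2.95, 3.51, 1.80 and 2.53 CPM in WT VAT, against 8.28, 4.09, 8.57 and 5.73 CPM in KO SAT and 6.21, 9.27, 3.91 and 9.79 CPM in WT SAT. KO VAT replicate 1 was the high library of its group, and WT SAT replicate 3 the low one of its own. No VAT library reached the lowest SAT library. VAT over SAT, the log2 fold change was -1.77 ± 0.37 in KO (adjusted p = 0.000791) and -1.44 ± 0.36 in WT (adjusted p = 0.00422).

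Gfra3, the co-receptor through which artemin signals with RET, was the exception. It had 3.63, 1.63, 1.81 and 1.90 CPM in KO VAT and 2.10, 2.72, 1.999 and 3.48 CPM in WT VAT, against 5.21, 1.61, 4.60 and 2.90 CPM in KO SAT and 2.33, 3.37, 2.34 and 4.03 CPM in WT SAT. The depots overlapped in both genotypes. Its log2 fold change of -0.67 ± 0.33 in KO (95% interval -1.38 to 0.04, adjusted p = 0.118) and -0.23 ± 0.33 in WT (-0.94 to 0.48, adjusted p = 0.629) was not called. The KO value was called lower without KO VAT replicate 1, the high library, or KO SAT replicate 2, the low one (leave-one-out adjusted p from 0.0248 to 0.344).

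Mbp, the protein that seals the inner faces of the myelin membrane, had 21.7, 20.7, 32.7 and 30.6 CPM in KO VAT and 34.4, 23.4, 31.6 and 35.8 CPM in WT VAT, against 136, 120, 105 and 139 CPM in KO SAT and 121, 201, 197 and 140 CPM in WT SAT. The lowest SAT library lay far above the highest VAT library. In log2 fold change this was -2.24 ± 0.19 in KO (adjusted p = 5.31e-08) and -2.40 ± 0.19 in WT (adjusted p = 2.96e-08). The Mbp gene also gives transcripts of another kind, the Golli forms known from immune cells, which a count per gene does not separate.

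Ncmap, a membrane protein of the noncompact regions of peripheral myelin, had the widest depot gap. It had 0.446, 0.374, 0.501 and 0.399 CPM in KO VAT and 0.715, 1.25, 0.732 and 0.661 CPM in WT VAT, against 9.17, 7.96, 7.19 and 9.45 CPM in KO SAT and 10.8, 17.4, 22.6 and 10.3 CPM in WT SAT. All 4 groups were free of overlap, in the order KO VAT, WT VAT, KO SAT, WT SAT from low to high. The log2 fold change was -4.28 ± 0.28 in KO (adjusted p = 2.80e-09) and -4.18 ± 0.26 in WT (adjusted p = 1.82e-09). The KO VAT values rest on 17 to 23 counts per library, for which counting error alone gives a coefficient of variation of 22.5%.

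Pmp22, a tetraspan protein of compact myelin that fibroblasts also make when they stop dividing, had 412, 402, 425 and 350 CPM in KO VAT and 444, 449, 418 and 475 CPM in WT VAT, against 482, 513, 472 and 503 CPM in KO SAT and 521, 578, 658 and 535 CPM in WT SAT. The depots did not overlap within a genotype, and the gap was small. The log2 fold change was -0.31 ± 0.08 in KO (adjusted p = 0.00564) and -0.36 ± 0.08 in WT (adjusted p = 0.00227).

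**Figure D1:**
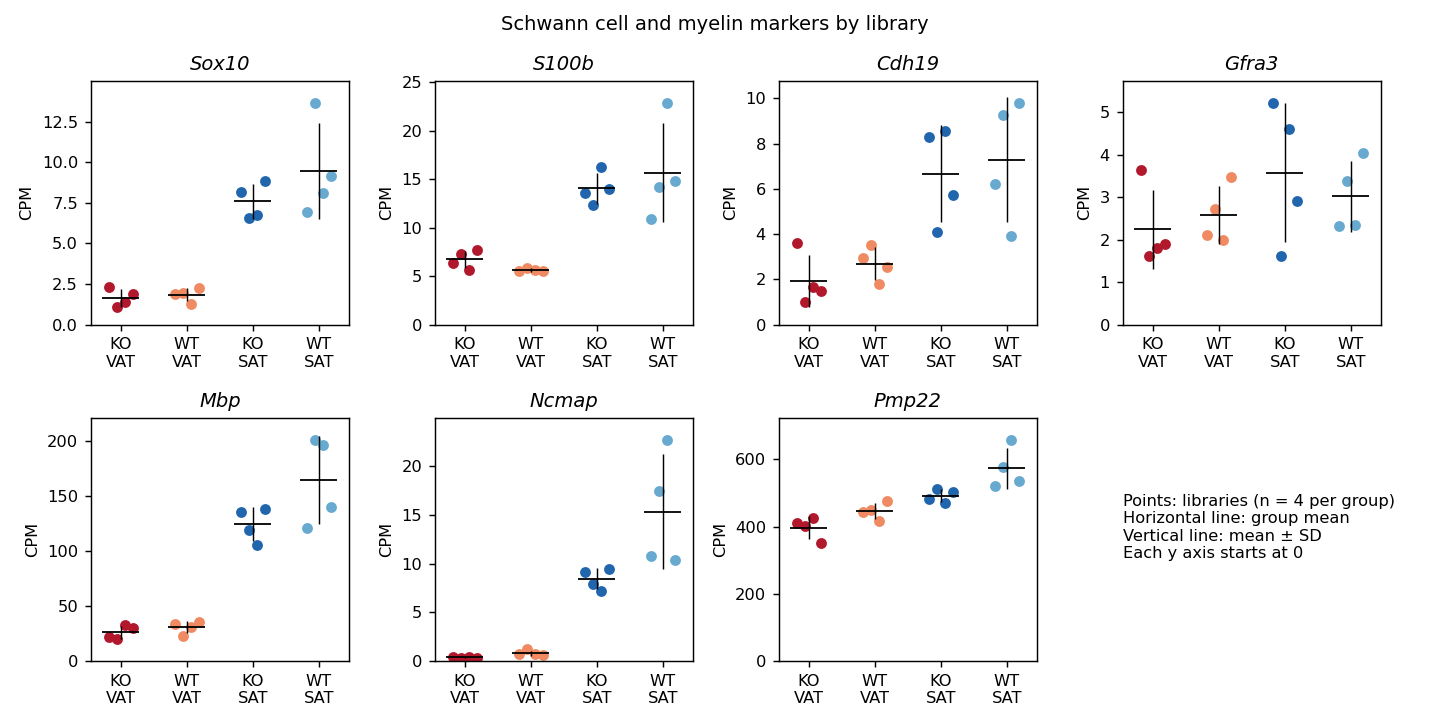
CPM of each of the 7 markers in every library (points), with the mean (horizontal line) and SD (vertical line) of each group of n = 4, on axes that start at 0. Within each genotype the VAT libraries lie below the SAT libraries for every marker but Gfra3. The Ncmap libraries of KO VAT sit at 0.374 to 0.501 CPM against 7.19 to 9.45 CPM in KO SAT. Between depots 43.3% of all tested genes were called in KO and 36.7% in WT, and the share of them without overlap is not given here.

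Divided by exonic length, the mean levels put Pmp22 far above the rest, at 169 CPM per kilobase in KO VAT and 190 in WT VAT, against 209 in KO SAT and 243 in WT SAT. Mbp came next in SAT, at 14.7 CPM per kilobase in KO and 19.5 in WT, while in VAT it stood at 3.12 in KO and 3.70 in WT, below S100b at 4.54 and 3.80. That order depends on the length used, all exons of a gene together, 8469 bases for Mbp and 1484 for S100b. Before this division Mbp was above S100b in every VAT library (20.7 CPM or more against 7.67 CPM or less). Sox10 stood at 0.546 CPM per kilobase in KO VAT and 0.601 in WT VAT, against 2.49 in KO SAT and 3.10 in WT SAT. Ncmap was the least abundant member per kilobase in VAT, at 0.193 in KO and 0.377 in WT, and stood above Sox10 in SAT, at 3.79 in KO and 6.86 in WT. Gfra3 stayed between 1.12 and 1.79 CPM per kilobase over the group means, and Cdh19 between 0.453 and 1.70. The gaps between Mbp and S100b in WT VAT and between Gfra3 and Cdh19 in both SAT groups were smaller than the SD of either gene.

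Other genes of myelin, not members, were taken as a list of 14, written with earlier results of these data known. All 14 were tested, and 13 were called lower in VAT in both genotypes and 1 higher. Of all tested genes, 20% were called lower and 23.3% higher in KO, and 17.6% and 19.1% in WT. The median log2 fold change was -2.62 in KO and -2.87 in WT. Ugt8a, an enzyme of myelin lipid synthesis, had a log2 fold change of -5.51 ± 0.46 in KO and -4.43 ± 0.41 in WT. The tight junction protein Cldn19 had -4.47 ± 0.31 in KO and -4.47 ± 0.30 in WT. The scaffold Prx (-1.93 ± 0.23 in KO, -2.59 ± 0.23 in WT) was also lower in VAT. So were Fa2h, which makes hydroxylated myelin lipids (-3.76 ± 0.42 and -4.13 ± 0.41 in the same order), Pou3f1 (-1.48 ± 0.27 and -1.997 ± 0.27) and the secreted signal Dhh (-3.17 ± 0.38 and -2.55 ± 0.37). The rest of those lower were Mag, Pllp, Drp2, Gjc3, Mal, Cnp and Gldn. Egr2, the switch of the myelin programme in Schwann cells and an immediate early gene in many other cells, was higher in VAT, by 0.40 ± 0.12 in KO (adjusted p = 0.0118, and 0.0516 without KO VAT replicate 2) and 0.83 ± 0.12 in WT (adjusted p = 3.50e-05).

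**Figure D2:**
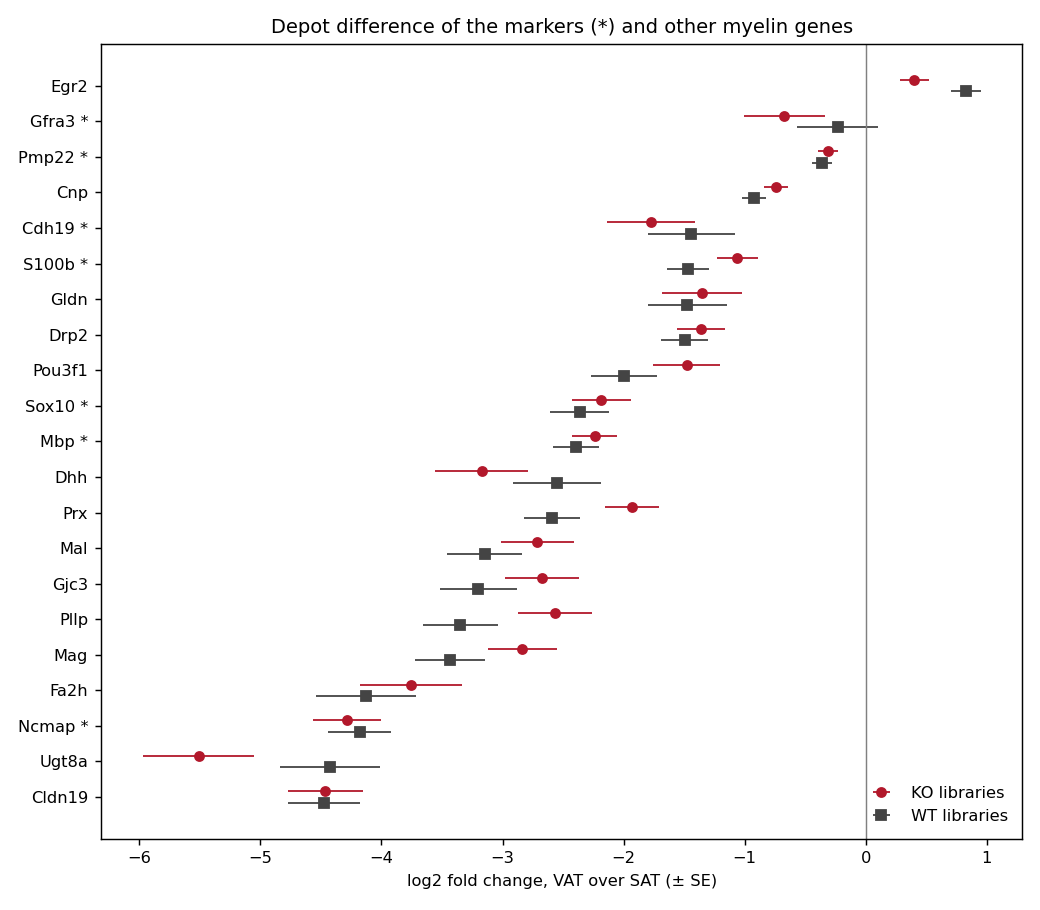
Log2 fold change of VAT over SAT with its SE for the 7 markers (starred) and the 14 other myelin genes, in KO libraries (circles) and WT libraries (squares), ordered by the WT value. Ugt8a lies farthest left in KO (-5.51) and Cldn19 in WT (-4.47), Gfra3 and Pmp22 lie nearest to 0 among the markers, and Egr2 is the one gene to the right of 0.

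Genes of Schwann cells without myelin, of precursors and of injured nerve were mixed. Of 13 tested in a list of 14, 2 were higher and 6 lower in KO VAT than in KO SAT. In WT VAT 3 were higher and 7 lower than in WT SAT. Of all tested genes, 23.3% were called higher and 20% lower in KO, and 19.1% and 17.6% in WT. Lower in both were Gap43, a growth protein of nerve (-3.61 ± 0.25 in KO, -3.82 ± 0.26 in WT), Sox2 and Foxd3, factors of immature and neural crest cells, the potassium channel Kcna1, the adhesion molecule L1cam and the neurotrophin receptor Ngfr. The matrix protein Matn2 was higher in both (2.31 ± 0.13 in KO, 3.23 ± 0.13 in WT), Fabp7 in KO alone was called, and Scn7a and Gfap were called higher and Erbb3 lower in WT. The WT calls were lost in leave-one-out fits for Gfap (adjusted p up to 0.140), Erbb3 (0.105), L1cam (0.0949), Sox2 (0.0783) and, without WT VAT replicate 2, Scn7a (0.0581). Whether the depot differences of Fabp7, Scn7a, Gfap and Erbb3 differed between genotypes was tested by the interaction, which called none of them.

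The relatives and partners of the members were also compared between depots. Of all tested genes, 23.3% were called higher and 20% lower in KO VAT, and 19.1% and 17.6% in WT VAT. Of 9 tested genes of the C, D and E groups of the SOX family, Sox10 was the one called lower in VAT, and 6 were called higher in both genotypes (Sox5, Sox8 and Sox13 not in every leave-one-out fit), among them Sox9 (2.93 ± 0.18 in KO, 2.23 ± 0.17 in WT) and Sox6 (2.15 ± 0.18 in KO, 2.08 ± 0.18 in WT). Of the relatives of Pmp22, Emp2 was higher in VAT in both genotypes (1.34 ± 0.06 in KO, 1.17 ± 0.06 in WT). Of 8 GDNF family genes, 2 were higher and 1 lower in KO VAT, and 1 was higher and 3 lower in WT VAT. Counts this small do not set the family apart from the shares over all genes. Gfra1, the co-receptor of GDNF itself, was lower in both (-1.98 ± 0.30 in KO, -2.62 ± 0.31 in WT), the ligand Nrtn was higher in both (in WT not without WT SAT replicate 1, adjusted p = 0.0538), and Ret, the receptor that Gfra3 serves, was not called (0.16 ± 0.24 in KO, adjusted p = 0.614, and 0.25 ± 0.24 in WT, adjusted p = 0.454). Of the neuregulin genes, 3 of 5 were tested, and Nrg2 was higher in VAT in both genotypes.

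Markers of other cells also moved with depot. For the counts of genes below, 23.3% of all tested genes were called higher and 20% lower in KO VAT. In WT VAT the shares were 19.1% and 17.6%. The summed level of 6 mesothelial genes, the lining of visceral fat, was 714 to 1366 CPM in KO VAT and 720 to 1377 CPM in WT VAT, against 6.604 to 9.49 CPM in KO SAT and 7.35 to 10.4 CPM in WT SAT. The sum of 10 progenitor genes, mostly Col1a1 and Dcn, was 23116 to 25467 CPM in KO VAT and 22297 to 25871 CPM in WT VAT, against 58436 to 68621 CPM in KO SAT and 53144 to 61133 CPM in WT SAT. Of these 10 genes, 7 were called lower and 1 higher in VAT in both genotypes. The sum of 7 genes of pericytes and smooth muscle was 4826 to 6125 CPM in KO VAT and 5211 to 5656 CPM in WT VAT, against 2069 to 2875 CPM in KO SAT and 2568 to 4402 CPM in WT SAT. The sum of 6 endothelial genes was 94.7 to 114 CPM in KO VAT and 120.02 to 134 CPM in WT VAT, against 229.8 to 309 CPM in KO SAT and 206 to 230.1 CPM in WT SAT. Most of that sum came from Tek, which averaged 149 CPM over all 16 libraries. Gene by gene, 3 of the 6 were called higher and 1 lower in VAT in both genotypes. Of immune cells, 8 lymphocyte genes summed to 19.5 to 41.2 CPM in KO VAT and 16.3 to 21.4 CPM in WT VAT, against 9.81 to 14.6 CPM in KO SAT and 5.71 to 14.2 CPM in WT SAT. The 7 genes of macrophages and myeloid cells summed to 25.7 to 46.4 CPM in KO VAT and 30.3 to 47.7 CPM in WT VAT, against 20.2 to 23.99 CPM in KO SAT and 14.5 to 25.4 CPM in WT SAT. None of these ranges overlapped between the depots, and their part in the member results was not tested. Of 7 perineurial and endoneurial genes tested, 4 were higher and 2 lower in KO VAT, and 2 were higher and 2 lower in WT VAT, with Itgb4 and Osr2 lower in both.

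Melanocytes, oligodendrocytes and central glia also use Sox10 or Mbp. The sum of 7 melanocyte genes was 24.6 to 27.4 CPM in KO VAT and 25.9 to 35.04 CPM in WT VAT, against 68.2 to 82.8 CPM in KO SAT and 73.7 to 84.6 CPM in WT SAT. Most of that came from Kit and Mitf, which other cells also express, and Tyr, the defining enzyme, had no count in any library of KO VAT, WT VAT or WT SAT. Mlana stood at 0.0203 to 0.0469 CPM in KO VAT and 0 to 0.0583 CPM in WT VAT, against 0.881 to 1.72 CPM in KO SAT and 1.64 to 2.08 CPM in WT SAT. This melanocyte gene was thus lower in VAT, as Sox10 was, and was not compared with Sox10 from library to library. For 3 others of the list that were, with group means subtracted, r with Sox10 ran from -0.593 to 0.088, with a median of -0.038. The part of melanocytes in the member values was not tested. Of 6 genes of oligodendrocytes and central glia, Olig2, Mog and Aqp4 did not pass the filter. The list summed to 29.2 to 42.0 CPM in KO VAT and 22.0 to 28.1 CPM in WT VAT, against 25.9 to 37.2 CPM in KO SAT and 31.1 to 41.4 CPM in WT SAT, nearly all of it from the glutamate transporter Slc1a3, which averaged 35.6 CPM in KO VAT and 24.1 CPM in WT VAT, against 33.2 CPM in KO SAT and 36.2 CPM in WT SAT. Of 12 genes of neurons and axons, Th, Dbh and Snap25 did not pass. The sum of the neuronal list was 22.4 to 35.5 CPM in KO VAT and 27.6 to 39.4 CPM in WT VAT, against 27.9 to 32.8 CPM in KO SAT and 26.9 to 40.4 CPM in WT SAT.

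A ratio of 2 counts within a library does not depend on how libraries are scaled, and it shows whether the markers kept their proportion to Sox10. This comparison was chosen after seeing the data, with 12 tests, each a two-sided exact permutation test over 4900 arrangements within the other factor, and Benjamini-Hochberg adjustment over the 12. Relative to Sox10, Ncmap was lower in VAT than in SAT, while Gfra3, Pmp22, S100b and Cdh19 were higher. For Mbp the depots differed by less than the spread between libraries.

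The log2 ratio of Mbp to Sox10 averaged 4.02 ± 0.57 in KO VAT and 4.10 ± 0.42 in WT VAT, against 4.04 ± 0.11 in KO SAT and 4.14 ± 0.33 in WT SAT (SD, n = 4 each). VAT minus SAT was -0.03 (exact permutation p = 0.882, adjusted p = 0.882). The ratio of Ncmap to Sox10 averaged -1.90 ± 0.48 in KO VAT and -1.15 ± 0.52 in WT VAT, against 0.16 ± 0.09 in KO SAT and 0.66 ± 0.58 in WT SAT. It was 0.261 times as high in VAT as in SAT, a log2 difference of -1.94 (exact permutation p = 0.000408, adjusted p = 0.00163), with all VAT libraries at -0.63 or below and all SAT libraries at 0.085 or above. The p of 0.000408 is the smallest these arrangements can give.

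Gfra3 ran the other way, with a log2 ratio to Sox10 of 0.41 ± 0.29 in KO VAT and 0.48 ± 0.23 in WT VAT, against -1.21 ± 0.72 in KO SAT and -1.64 ± 0.35 in WT SAT. That ratio was 3.66 times as high in VAT as in SAT (exact permutation p = 0.000408, adjusted p = 0.00163), with no overlap between the depots. For Pmp22 the ratio was 3.88 times as high in VAT (exact permutation p = 0.000408, adjusted p = 0.00163), for S100b 2.07 times (p = 0.00122, adjusted p = 0.00367) and for Cdh19 1.57 times (p = 0.0155, adjusted p = 0.0310). Every one of these 4 ratios kept its direction when each library in turn was left out. The exact permutation p, before adjustment, then stayed at 0.0339 or less, the highest being that of Cdh19.

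**Figure D3:**
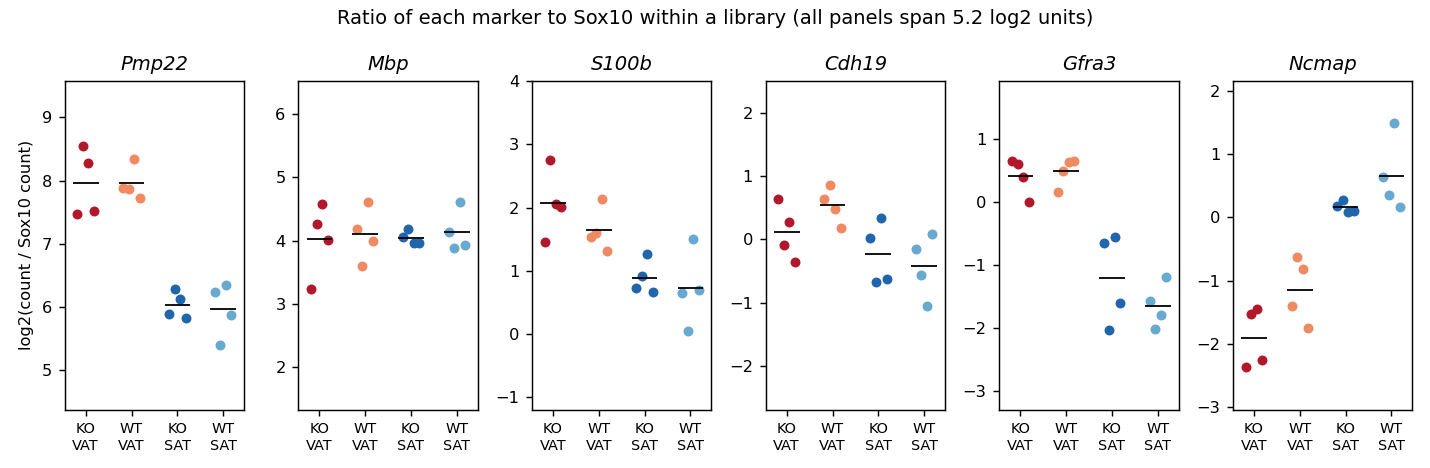
Log2 ratio of each marker's count to the Sox10 count of the same library (points), with group means (lines), on panels that span the same number of log2 units. Mbp stays near 4 in all groups, Ncmap lies lower in VAT than in SAT, and Gfra3 and Pmp22 lie higher in VAT.

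The second question was whether loss of Nr4a1 changed the markers. Ncmap was the one member called, lower in KO, and the others were not called in either depot. In SAT 1 of 7 members was called, lower, against 5.89% of all tested genes in either direction (2.43% lower and 3.46% higher). The median log2 fold change of the members was -0.22 in SAT and -0.20 in VAT, against -0.010 and -0.0043 over all tested genes.

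Ncmap, as given above, lay lower in every KO SAT library than in any WT SAT library. The log2 fold change of KO over WT in SAT was -0.85 ± 0.22 (adjusted p = 0.0303). The call was lost without WT SAT replicate 3 (-0.60, adjusted p = 0.0897), without WT SAT replicate 2 (-0.79, adjusted p = 0.0683), with the replicate number as a block (-0.79, adjusted p = 0.0541), without any single KO SAT library (adjusted p from 0.0555 to 0.0929), with only the SAT groups in the fit (adjusted p = 0.0867) and without both WT SAT replicate 3 and KO VAT replicate 4 (-0.60, adjusted p = 0.0743). Over all alternatives the adjusted p ranged from 0.00691 to 0.0929, and every one put Ncmap lower in KO.

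In VAT edgeR called 0 of 7 members, with 1 at an unadjusted p under 0.05, where 4.1% of all tested genes were called (1.26% lower and 2.84% higher). That member was Ncmap, again with no overlap between the groups (log2 fold change -0.95 ± 0.31, adjusted p = 0.103). DESeq2 called it (adjusted p = 0.0291), limma-voom did not (adjusted p = 0.454), and edgeR called it without WT SAT replicate 3 (adjusted p = 0.0352), a library outside this contrast that enters the shared spread. With both depots averaged, the log2 fold change of Ncmap was -0.90 ± 0.19 (adjusted p = 0.0063), lower in KO with no overlap in either depot, and 8.06% of all tested genes were called (3.41% lower and 4.65% higher). That call held with each library left out (adjusted p from 0.00238 to 0.0183) and was lost with limma-voom (adjusted p = 0.129).

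Relative to Sox10, Ncmap was also lower in KO. The log2 ratio given above differed by -0.63 between KO and WT libraries within depots (exact permutation p = 0.0151, adjusted p = 0.0310, and p before adjustment from 0.00367 to 0.0359 with each library left out). The ratios of the other 5 members to Sox10 differed between KO and WT by -0.12 to 0.29, with adjusted p from 0.381 to 0.882. Without WT SAT replicate 3 the largest of these, for S100b, was 0.42 (exact permutation p = 0.0478, before adjustment).

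Pmp22 stood lower in every KO SAT library (472 to 513 CPM) than in any WT SAT library (521 to 658 CPM), and the VAT groups overlapped by a narrow margin. Averaged over depots its log2 fold change was -0.19 ± 0.06 (adjusted p = 0.0502), just outside the threshold. It was called by DESeq2 (adjusted p = 0.0110), by limma-voom (adjusted p = 0.0490) and with DESeq2's size factors (adjusted p = 0.0497), and by edgeR without WT SAT replicate 1, WT SAT replicate 4 or KO VAT replicate 3, within a range of 0.0110 to 0.106 over all alternatives. Mbp had -0.40 ± 0.18 in SAT (adjusted p = 0.198) and -0.25 ± 0.19 in VAT (adjusted p = 0.546).

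For the remaining members the intervals were wide. The log2 fold change of Sox10 in KO had a 95% interval of -0.80 to 0.16 in SAT and -0.67 to 0.40 in VAT. That of S100b ran from -0.50 to 0.20 in SAT and -0.11 to 0.62 in VAT. Gfra3 had -0.46 to 0.95 in SAT and -0.91 to 0.51 in VAT, and Cdh19 had -0.86 to 0.60 in SAT and -1.25 to 0.32 in VAT. The interaction, the KO effect in VAT minus that in SAT, was called for 0 of 7 members by edgeR, by DESeq2 and by limma-voom, with 0 at an unadjusted p under 0.05 in edgeR, where 0.267% of all tested genes were called (0.137% lower and 0.131% higher). So the KO effect was not shown to differ between SAT and VAT for any member.

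Among the other myelin genes few were called for the KO effect. Of 14, 1 was higher and 0 lower in KO SAT, where 3.46% of all tested genes were called higher and 2.43% lower. There 5 had an unadjusted p under 0.05 in edgeR, and DESeq2 and limma-voom each called 2. With depots averaged 1 was higher and 1 lower, where 4.65% of all were called higher and 3.41% lower. In KO VAT edgeR called 0 of 14, with 0 at an unadjusted p under 0.05, and DESeq2 and limma-voom also called 0. The median log2 fold change was -0.40 in SAT, with 3 of 14 above 0, and -0.076 in VAT, with 7 of 14 above 0. Egr2 rose in KO SAT (62.2, 46.3, 57.9 and 61.0 CPM, against 31.9, 40.9, 35.2 and 37.7 CPM in WT SAT, log2 fold change 0.64 ± 0.12, adjusted p = 0.00414). Cnp, a myelin enzyme with wide expression elsewhere, was lower with depots averaged (-0.25 ± 0.07, adjusted p = 0.0343, lost in most leave-one-out fits, with a range of 0.0110 to 0.0706 over the alternatives).

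Of the 13 tested genes of Schwann cells without myelin, precursors and injured nerve, 2 rose in KO SAT, where 3.46% of all tested genes were called higher, 1 rose in KO VAT (2.84% of all) and 3 rose with depots averaged (4.65% of all). None was called lower. Ngfr had 7.27, 9.41, 7.06 and 12.1 CPM in KO VAT against 3.88, 5.002, 4.02 and 3.15 CPM in WT VAT (log2 fold change 1.16 ± 0.24, adjusted p = 0.0105), and 21.0, 10.3, 17.2 and 14.6 CPM in KO SAT against 7.70, 11.6, 6.28 and 6.44 CPM in WT SAT (0.97 ± 0.24, adjusted p = 0.0225). Ngfr was no longer called in SAT when replicate 1, 3 or 4 of either SAT group was left out (adjusted p from 0.0506 to 0.0722). Matn2 had 94.9, 128, 96.3 and 116 CPM in KO SAT against 39.8, 48.3, 45.6 and 48.8 CPM in WT SAT (log2 fold change 1.25 ± 0.12, adjusted p = 2.21e-05). Its KO effect was smaller in VAT (interaction -0.92 ± 0.17, adjusted p = 0.0380), lost in most leave-one-out fits (adjusted p up to 0.0887). The adhesion molecule Ncam1 rose with depots averaged (0.67 ± 0.17, adjusted p = 0.0210). Matn2 and Ngfr are also made by cells other than Schwann cells, and the source of their reads was not tested.

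Of the GDNF family, Gfra2, the co-receptor of neurturin, rose in KO VAT (8.50, 12.2, 11.3 and 10.1 CPM, against 5.81, 6.04, 6.61 and 6.22 CPM in WT VAT, log2 fold change 0.77 ± 0.13, adjusted p = 0.00212). The integrin gene Itgb4 of the perineurial list was lower with depots averaged (-0.50 ± 0.15, adjusted p = 0.0423), a call lost in most leave-one-out fits (adjusted p up to 0.101). No gene of the SOX, EMP or neuregulin lists was called for the KO effect in either depot by edgeR. In the same libraries 4 of 8 adipocyte genes rose in KO VAT, among them Plin1 (log2 fold change 1.38 ± 0.17), where 2.84% of all tested genes were called higher. The part of that change of adipocyte genes in the marker values was not tested.

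The third question was whether the markers rose and fell together from library to library. Group means were subtracted from log2 CPM, so that only differences between libraries of 1 group count, and 21 pairs were tested over 16 libraries by exact permutation within groups (331776 arrangements). Gfra3 and Cdh19 were the one pair to pass, with Pearson's r = 0.818 (exact permutation p = 0.000823, adjusted p = 0.0173) and Spearman's rho = 0.812 (exact permutation p = 0.00121, adjusted p = 0.0202). Within SAT r was 0.866 (exact permutation p = 0.00694) and within VAT 0.791 (exact permutation p = 0.0677), both before adjustment. Spearman's rho was 0.667 within SAT and 0.786 within VAT. Over all groups r ranged from 0.755 to 0.864 with each library left out. Without KO VAT replicate 1 and KO SAT replicate 2, the libraries farthest from the median of Gfra3, r was 0.749 (exact permutation p = 0.0131). The adjusted p passed the threshold no longer without KO VAT replicate 1, KO SAT replicate 2 or KO SAT replicate 4, or without the 2 farthest libraries. KO VAT replicate 1 was the highest of its group for both genes (3.63 CPM for Gfra3 and 3.61 CPM for Cdh19), and KO SAT replicate 2 the lowest of its group for both (1.61 and 4.09 CPM).

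Sox10 followed the same pair less closely. Its r was 0.664 with Cdh19 (exact permutation p = 0.0217, adjusted p = 0.152) and 0.579 with Gfra3 (p = 0.0172, adjusted p = 0.152), and by rank the correlation with Gfra3 passed (rho = 0.735, exact permutation p = 0.00192, adjusted p = 0.0202). Sox10 had r = 0.337 with Mbp (exact permutation p = 0.301, adjusted p = 0.881), 0.244 with Ncmap, 0.111 with Pmp22 and 0.006 with S100b (adjusted p from 0.881 to 0.987 for these 4). Among the myelin members, Ncmap and Pmp22 had r = 0.599 (exact permutation p = 0.0515, adjusted p = 0.270). Mbp and Ncmap had r = 0.913 within SAT (exact permutation p = 0.0295, before adjustment). Within VAT, where Ncmap counts were at most 60 per library, their r was -0.416 (exact permutation p = 0.3125, before adjustment). Libraries share their scaling, and members at low counts carry more counting error. The part of either in these r values was not tested.

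**Figure D4:**
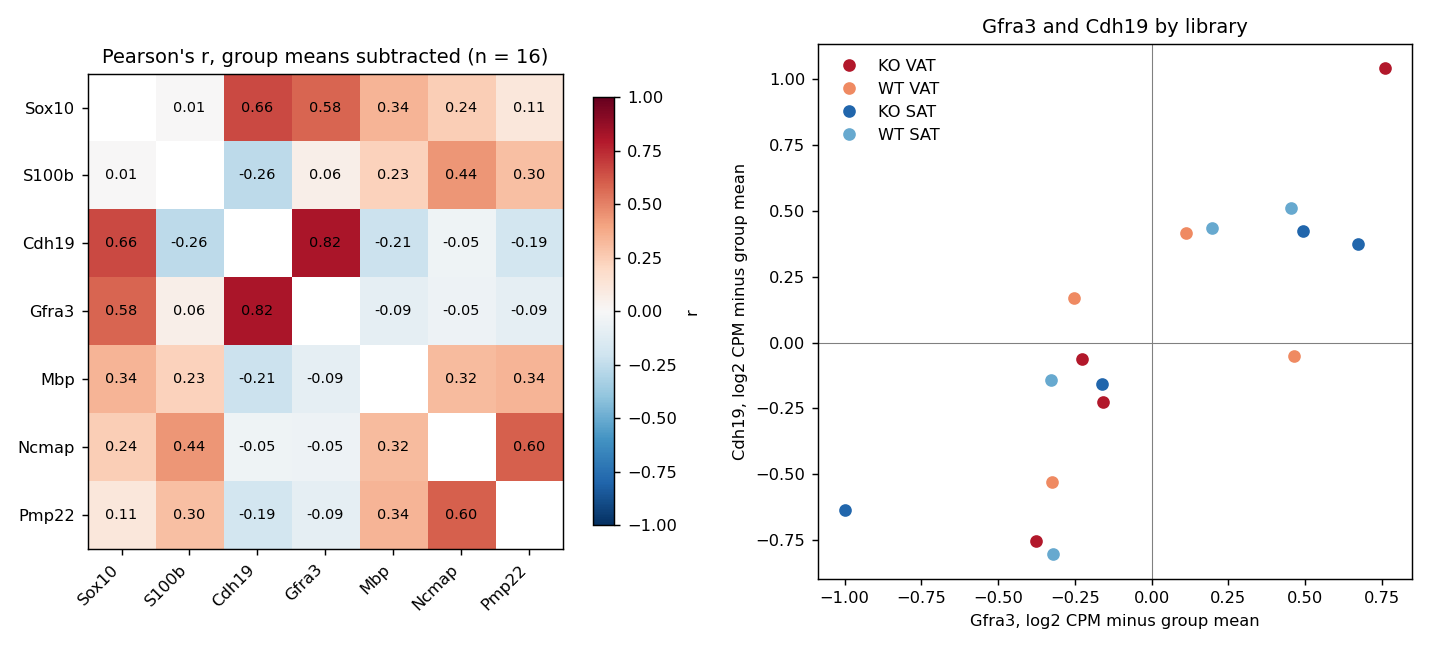
Left, Pearson's r between each pair of markers over 16 libraries after group means were subtracted from log2 CPM. Right, the same values for Gfra3 (x axis) and Cdh19 (y axis), 1 point per library, with r = 0.82 and KO VAT replicate 1 at the upper right.

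Among 13416 tested genes averaging 1 CPM or more, members left aside, the 10 most like Sox10 by the same r over 16 libraries included Reln (r = 0.880), Gm17300 (0.878), Kcna6 (0.855), Scn3a (0.854) and Gpr37l1 (0.853). Among them were also Zfp689 (0.853), Il5 (0.812), Ugt8a (0.805) and Tmprss5 (0.801), and Ugt8a is on the list of myelin genes. Of the other myelin genes, 6 of 14 had r over 0.5 with Sox10, against 2.34% of all genes compared. Their median r was 0.423 (range -0.201 to 0.805), against -0.016 over all genes. Nearest in median among the other lists were the 7 genes of pericytes and smooth muscle, at 0.402 (0.288 to 0.438), with 0 over 0.5. Of the other 6 members 2 passed that level, Cdh19 and Gfra3. The 10 genes most like the mean of the 6 members without Pmp22 included Gpr37l1 (0.955), Rasgef1c (0.8286), Kcna6 (0.813), Ugt8a (0.796), Slc35f1 (0.781), Caap1 (0.776) and Gm17300 (0.772). These r values are descriptions of 16 libraries, chosen as the highest of many.

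Lists taken around the other members had a different make-up. The 10 genes most like Gfra3 and the 10 most like Cdh19 both held L1cam (r = 0.849 with Gfra3 and 0.883 with Cdh19), an adhesion molecule of Schwann cells without myelin and of axons. None of the 10 genes most like S100b, Mbp, Ncmap or Pmp22 was on a Schwann cell list. For S100b they began with Ctps2 (0.935) and Immt (0.917), for Mbp with Rimklb (0.895) and Gpm6a (0.883), for Pmp22 with Tmem5 (0.919) and Slco3a1 (0.879), and for Ncmap they included Camk2n1 (0.806).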

How the data were processed

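Per the labels, total RNA came from RNeasy Micro columns, was treated to remove DNA, and was made into libraries with the NEBNext Ultra RNA kit, which does not mark strand, for single reads on a NextSeq instrument. The submitters' processing notes name STAR, FastQC, featureCounts, DESeq and the build mm10. Versions, annotation and the treatment of multiply mapped reads are not stated there. The authors deposited whole-number counts per gene symbol, used here, and a normalized table, not used here. Of 38720 lines, 27 carry date-like names, kept in totals and never named.

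In R 4.3.3, edgeR 4.0.16 (filterByExpr, TMM, 1 coefficient per group, all 16 libraries, 12 residual degrees of freedom, biological coefficient of variation 0.156) tested each contrast, with Benjamini-Hochberg adjustment over 16842 genes and calls at 0.05. DESeq2 1.42.0, limma 3.58.1 (voom), other scaling, no filter, a replicate block, fewer groups and leave-one-out fits were alternatives. The averaged contrast and the interaction use all groups, so no fit of fewer was made for them. Covariation used log2 CPM with a prior count of 2. Code was tested on simulated data. Gene positions and exonic lengths came from GENCODE vM21, promoters from RefSeq, and figures from matplotlib 3.10.9.

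The members, the gene lists and the rule for named genes (all members, genes called in a described comparison and otherwise the most abundant of a list, and the 10 genes most like Sox10 or the members' mean) were chosen with earlier results of these data known. Some genes of the lists and of the most alike are not reported here.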

Additional observations from a re-analysis of the deposited data

Results flagged for a closer look

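In 56 groups of 4 libraries, 1 for each of the 4 groups of the members and of the other genes examined, 4 held a library far from the rest by Dixon's criterion, where chance gives about 1 in 20. Ncmap stood at 1.25 CPM in WT VAT replicate 2, and the next highest library of that group had 0.732 CPM. Gfra3 stood at 3.63 CPM in KO VAT replicate 1, against 1.90 CPM in the next highest library. Gfra2 stood at 13.6 CPM in KO SAT replicate 3, against 11.6 CPM in the next highest, and the basal integrin gene Itgb4 at 11.8 CPM in KO SAT replicate 1, against 9.10 CPM. Without WT VAT replicate 2, Ncmap remained lower in KO VAT and was not called.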

How the results depend on the processing

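In both genotypes 6 members were called lower in VAT under every alternative, and in KO Gfra3 besides in some leave-one-out fits, which made 7. The members called for KO against WT were fewer or more under some settings. They were, in SAT, 0 with a replicate block, with only the groups compared and without WT SAT replicate 3 and KO VAT replicate 4 together, and 0 to 1 in leave-one-out fits. They were, in VAT, 1 with DESeq2 and 0 to 1 in leave-one-out fits. With depots averaged they were 2 with DESeq2 or its size factors and 1 to 2 in leave-one-out fits. Genes called in SAT numbered 1710 with DESeq2, 509 with only the groups compared, 1263 without those 2 libraries and 469 to 1158 in leave-one-out fits. In VAT they numbered 1248 with DESeq2 and 412 to 1216 in leave-one-out fits. The interaction called 563 with DESeq2, 14 with a replicate block and 7 to 149 in leave-one-out fits. Pairs that covaried numbered 2 with Spearman's rho, 0 without the 2 farthest libraries and 0 to 1 in leave-one-out fits. In all of these the cause was not tested, except that fewer libraries enter the reduced fits.

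Replicate numbers were not taken to pair the libraries (r of same-numbered pairs from -0.16 to 0.18, with 4 of 16 libraries nearest to their own number). Between WT VAT and WT SAT r was 0.144, 0.119 and 0.113 for replicates 1 to 3 and -0.041 for replicate 4, and the labels do not say whether depots share animals. With the replicate block the adjusted p of Ncmap in SAT was 0.0541.

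Values with no call that changed sign were small. S100b in KO SAT had a log2 fold change of 0.081 without the 2 libraries, and from -0.29 to 0.080 in leave-one-out fits. Gfra3 with depots averaged had -0.043 with limma-voom, -0.020 with the replicate block and -0.15 to 0.14 in leave-one-out fits. Leave-one-out fits put Cdh19 in SAT at -0.34 to 0.042, Sox10 in VAT at -0.34 to 0.022 and S100b with depots averaged at -0.020 to 0.17. The interaction of Mbp was -0.019 without the 2 libraries and 0.036 to 0.28 in leave-one-out fits, where those of Sox10 (-0.036 to 0.34), Ncmap (-0.35 to 0.15) and Pmp22 (-0.023 to 0.11) crossed 0. Log2 ratios to Sox10 that crossed 0 were Mbp by depot (-0.12 to 0.10), Mbp by genotype (-0.18 to 0.042) and Pmp22 by genotype (-0.063 to 0.11). Low counts limit Ncmap in KO VAT, at 17 to 23 per library.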
